A study of Brachypodium distachyon with 8 samples.

Results

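The loci described here are 3' UTR loci of Brachypodium distachyon in which 24 nt was the leading read length without being nearly the only one. A 3' UTR is the untranslated end of a transcript, and a locus is 1 transcript identifier. Reads of each length were summed over the 8 libraries, and loci with 40 or more reads were kept except the 100 with most reads, which left 18091 loci. Each was given the share of its reads in 4 length classes, 15 to 19, 20 to 23, 24, and 25 to 41 nt, and the loci with 24 nt as the largest class at under 70% were taken. That gave 4840 loci from 3598 genes, 26.8% of the 18091 loci and 32.7% of their reads. They are called mixed loci below. The pooled length classes of these libraries chose them, so their pooled make-up is a description and supports nothing.

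The libraries were made from leaves of Bd21, a diploid inbred line of this model grass, as total RNA from which small RNAs of 15 to 40 nt were selected. There were 8 libraries with 1 library per condition. One was from unstressed plants kept at 22 °C. Plants in 2 libraries were held at 4 °C for 6 h and 24 h, and plants in 4 libraries at 42 °C, either in air or immersed in water (air heat and water heat below), for 1 h and 3 h each. For the last library the soil was soaked with 300 mM NaCl and leaves were taken at 48 h. The labels' protocols name 2 library kits without saying which library used which, so a kit effect cannot be told apart from a condition. With 1 library per condition no difference below has a replicate check, and no p-values are given. Every comparison is between libraries, and the 95% intervals hold counting error alone: reads copied by PCR are not separate molecules, so the true error is larger.

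In plants, 24 nt small RNAs are best known from Arabidopsis as the products of the Dicer-like enzyme DCL3, which cuts double-stranded copies of transcripts made by RNA polymerase IV. They guide DNA methylation, mostly at transposons and repeats and also beside genes. The 21 nt class holds most microRNAs and trans-acting small interfering RNAs, made by DCL1 and DCL4, and 22 nt RNAs are made by DCL2. Reads much shorter or longer than these sizes also arise when longer RNAs break down. None of these origins was measured here, and a read length is all that the counts give.

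The mixed loci were covered at very unequal depth. They held 66796 reads in the unstressed library, 1.83% of its 3642238 counted reads, with a median of 6 reads per locus. In the stressed libraries they held between 115906 reads after 1 h of water heat and 472478 after 6 h of cold, which was 5.97% to 17.5% of the library. At least 1 read was listed for 4379 of the 4840 mixed loci in the unstressed library and for 4709 to 4839 in each stressed one. With 20 reads set as the minimum for reading a make-up within 1 library, 886 mixed loci could be read in the unstressed library, 1660 after 1 h of water heat, and 2465 to 3839 in the other stressed libraries. Precision per locus was therefore lowest in the unstressed library, which is the reference of every stress comparison.

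Pooled over libraries, the 24 nt share of a mixed locus had a median of 54.6% and ran from 25.8% to 69.98%. At 1762 mixed loci (36.4%) 24 nt led with under 50% of the reads, and at 385 it led the next class by under 5 percentage points. At the upper end 891 mixed loci lay within 5 points of the limit. Bradi1g41670.2 stood just inside it with 69.98% of 2372 reads, and Bradi1g00440.1 just outside with 42 of 60 reads. At the other edge, Bradi3g47270.1 was taken because 24 nt held 30.8% of its 785 reads and 15 to 19 nt held 30.7%. Bradi1g16510.1 was taken with 28.8% at 24 nt against 28.4% at 15 to 19 nt, while Bradi1g16510.2, another identifier of the same gene, had 28.5% against 28.6% and was not. The boundaries thus cut through a continuous range, and most of what follows is about lengths rather than about which identifier passed.

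The usual companion of 24 nt was the neighbouring class. The second largest class was 20 to 23 nt at 3700 mixed loci (76.4%), 15 to 19 nt at 814 (16.8%) and 25 to 41 nt at 222 (4.59%), and it was tied at 104. Among single lengths, the commonest after 24 nt was 23 nt at 2404 mixed loci (49.7%) and 21 nt at 1398 (28.9%). A length of 15 to 19 nt took that place at 610 loci, of which 324 had 15 nt, and 25 nt took it at 66. The lengths of 20 and 22 nt, although inside the same class as 21 and 23 nt, were the commonest companion at only 58 mixed loci.

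The kind of companion went with how strongly 24 nt led. Where 23 nt was the commonest other length the median 24 nt share was 59.5% and 23 nt itself held a median of 12.6%. Where it was 21 nt these medians were 51.7% and 14.6%. Loci accompanied by 15 to 19 nt had a median 24 nt share of 46.5%. These are pooled values from the reads that chose the loci, so they only describe how the set was made up.

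**Figure D1:**
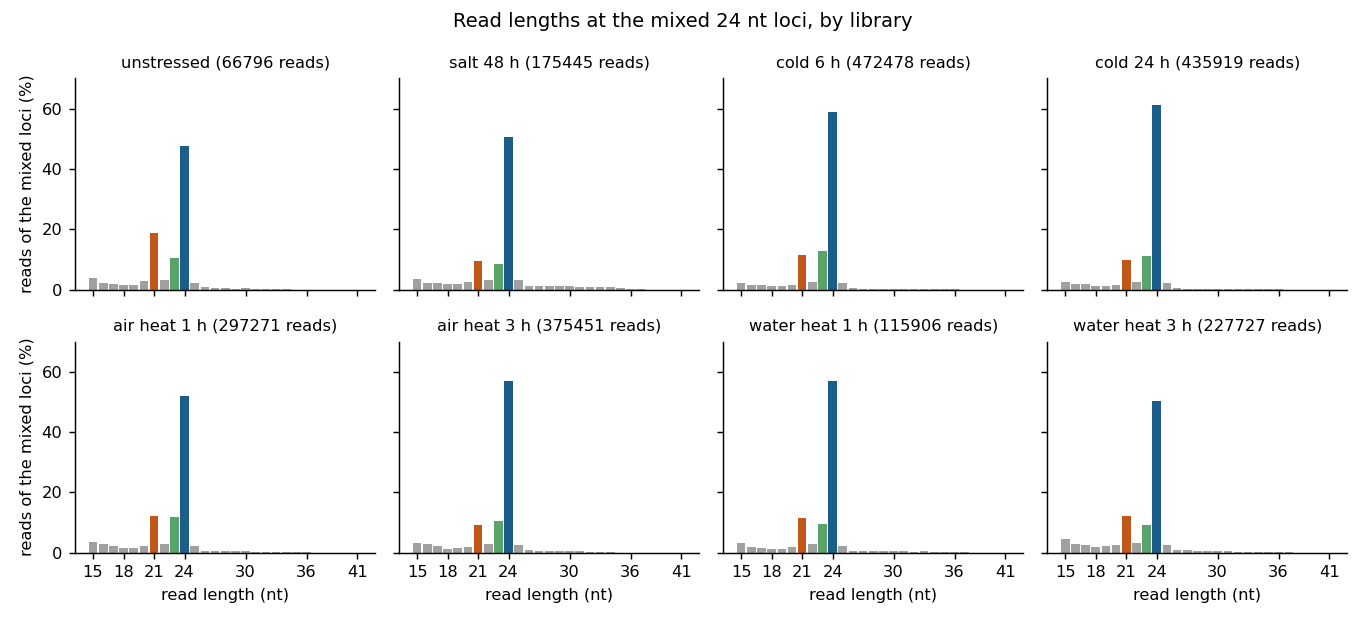
Share of the summed reads of the mixed loci (percent, vertical axis) at each read length from 15 to 41 nt (horizontal axis), 1 panel per library, with 24 nt in blue, 23 nt in green, 21 nt in orange and the number of reads in each title. The 24 nt bar is the tallest in all 8 panels, the 21 nt bar is highest in the unstressed panel at 18.8%, and the salt panel has the longest tail above 24 nt.

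By library, 24 nt held 47.6% of the reads of the mixed loci in unstressed leaves (95% interval 47.2% to 48.0%) and 50.5% under salt. It held 58.9% and 61.2% in cold at 6 h and 24 h, 52.0% (1 h) and 57.0% (3 h) in air heat, and 56.9% (1 h) and 50.4% (3 h) in water heat. At the mixed loci the unstressed library was the lowest and the cold libraries the highest. The order of the times was not the same in the heat series, since the later library had more 24 nt in air and less in water. Over all kept loci, mixed or not, 24 nt held 38.7% in unstressed leaves, 36.2% under salt, and 51.3% and 51.9% in cold. The lowest place of the unstressed library therefore did not hold over all kept loci.

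Because each library had a part in choosing the loci, the choice was repeated 8 times with 1 library left out and the 24 nt share was read in that library. It was 47.1% in the unstressed library, 50.1% under salt, 60.6% and 61.4% in cold, 54.1% and 56.0% for air heat, and 56.5% and 49.4% for water heat. As with the full rule, the unstressed library had the lowest share and 24 h of cold the highest. Loci chosen as 70% or more 24 nt without the library had 69.4% in the unstressed library and 73.8% to 77.6% in the stressed ones. The unstressed library was therefore also the lowest at the loci nearly made of 24 nt.

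The 2 main companions behaved differently across the conditions. Reads of 21 nt made up 18.8% of the mixed loci's reads in unstressed leaves and 9.11% to 12.3% in the 7 stressed libraries. Reads of 23 nt made up 10.4% in unstressed leaves, inside the range of 8.64% to 12.9% of the stressed libraries. Of the other lengths in that class, 22 nt held 2.56% to 3.18% in all 8 libraries and 20 nt held 1.62% to 2.91%.

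Set against 24 nt, which needs no scaling between libraries, there were 0.394 reads of 21 nt per 24 nt read in the unstressed library (95% interval 0.386 to 0.402). The ratio was 0.189 under salt, 0.194 and 0.163 in cold, 0.232 and 0.160 for air heat, and 0.204 and 0.244 for water heat. All 7 stressed libraries lay below the unstressed one with intervals apart. The ratio of 23 nt to 24 nt was 0.219 in the unstressed library and ran from 0.169 after 1 h of water heat to 0.226 after 1 h of air heat, so the unstressed library did not stand apart.

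The ratio of 21 nt to 24 nt at other loci is given for comparison. At loci with 70% or more 24 nt it was 0.117 in the unstressed library against 0.0501 to 0.0726 in the stressed ones. Over all 18091 loci it was 0.476 against 0.209 to 0.343. Loci led by 20 to 23 nt had 2.97 against 1.32 to 2.23. In these sets the unstressed library had the highest ratio. It did not at loci led by 15 to 19 nt, with 0.896 against 0.461 to 0.906, nor at loci led by 25 to 41 nt, with 0.691 against 0.557 to 0.831. The ratio of 23 nt to 24 nt, in which the unstressed library did not stand apart at the mixed loci, was highest in it at loci with 70% or more 24 nt, at 0.150 against 0.0916 to 0.128, and over all 18091 loci, at 0.214 against 0.173 to 0.209.

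**Figure D2:**
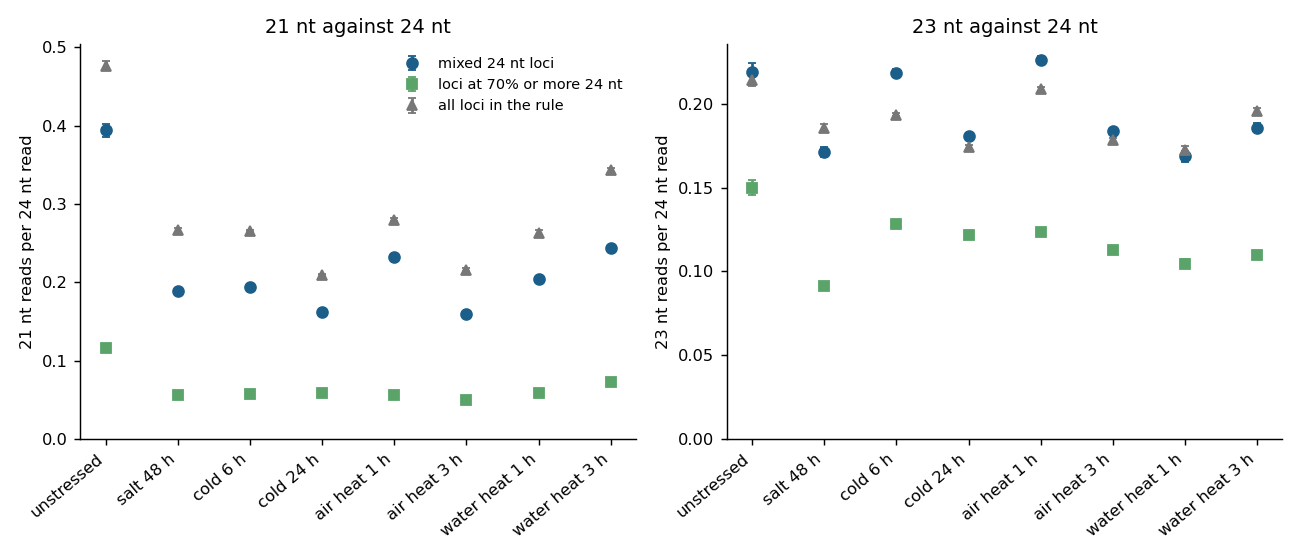
Reads of 21 nt (left) and 23 nt (right) per 24 nt read (vertical axes, from 0) in each library (horizontal axes) for the mixed loci (circles), loci with 70% or more 24 nt (squares) and all loci in the rule (triangles), with 95% counting intervals as bars that are mostly smaller than the symbols. The left panel drops from 0.394 in the unstressed library to between 0.160 and 0.244 in the stressed libraries for the mixed loci, whereas in the right panel their unstressed value of 0.219 lies inside the range of 0.169 to 0.226 of the stressed libraries. The squares and triangles of the right panel are highest in the unstressed library.

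The same was seen at single loci read in every library. There were 804 mixed loci, from 560 genes, with 20 or more reads in all 8 libraries. This subset was fixed mainly by the shallow unstressed library and is not representative of the 4840. Identifiers of 1 gene can hold the same reads, so the 804 are not all separate. Their median 21 nt share was 14.3% without stress, against 7.91% to 10.3% in the stressed libraries. Between 508 and 607 of the 804 had less 21 nt in a given stressed library than in the unstressed one. The unstressed library had the highest 21 nt share of all 8 at 314 of the 804 loci, and the next library, 3 h of water heat, at 118. No such counts were made over all loci, so whether they are particular to the mixed loci cannot be told.

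At these 804 loci the median 24 nt share was 50% without stress, against 53.7% to 61.7% in the stressed libraries. The unstressed library had the lowest 24 nt share of all 8 at 292 loci. Which library was highest was spread more evenly, with 190 loci for 1 h of water heat and 131 each for 6 h of cold, 24 h of cold and 3 h of air heat. Counts of highest and lowest depend on depth, since counting error can put a shallow library at either end. They too were not made over all loci. For 22 nt, the unstressed library was highest at 140 of the 804 loci and lowest at 154. The 10 loci with most 21 nt reads held 8.21% of the 21 nt reads of the mixed loci in the unstressed library and 4.41% to 9.77% in the stressed libraries, so the 21 nt reads were spread over many loci in every library.

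Long reads were a companion mainly in the salt library. Reads of 25 to 41 nt made up 13.8% of the mixed loci's reads under salt, 5.72% in the unstressed library and 4.76% to 8.27% elsewhere. The excess lay beyond 25 nt, since 25 nt alone held 3.23% under salt and 2.13% to 2.47% elsewhere, whereas 30 nt held 1.18% against 0.251% to 0.589%. At 364 of the 804 loci read in all libraries the salt library had the highest share of 25 to 41 nt, a count that was not made over all loci. Chosen without the salt library, the mixed loci had 14.0% of their salt reads at these lengths.

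Short reads of 15 to 19 nt made up 11.4% of the reads in the unstressed library, 11.9% under salt, 7.63% and 8.78% in cold, 12.2% and 11.4% for air heat, and 9.47% and 13.9% for water heat. The cold libraries were the lowest and 3 h of water heat the highest. Within the class 15 nt was the commonest length in every library, at 2.11% to 4.44% of the reads. At the 566 mixed loci whose commonest other length was 15, 16 or 17 nt, these 3 lengths together held 31.7% of the reads in the unstressed library, 30.3% after 3 h of water heat and 15.3% after 6 h of cold. Each of these libraries had a part in grouping the loci. Grouped without the library being read, such loci had 27.1%, 30.4% and 13.3% there, so the order of the first 2 was not kept.

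**Figure D3:**
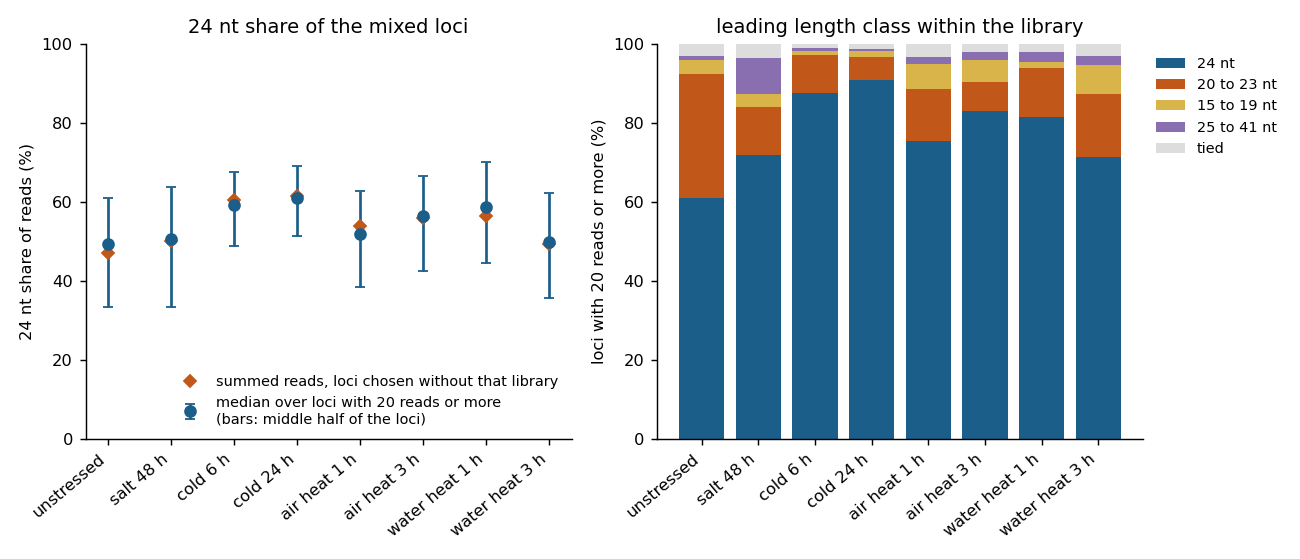
Left, the 24 nt share of reads (percent) in each library as the median over mixed loci with 20 or more reads there (circles, bars over the middle 50% of loci) and as the share of summed reads at loci chosen without that library (diamonds). Right, the percent of those mixed loci led by each length class within the library as stacked bars from 0, with 61.1% led by 24 nt in the unstressed library and 90.8% after 24 h of cold.

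A locus led by 24 nt in the pool was often led by another class in 1 library. Of the 886 mixed loci with 20 or more reads in the unstressed library, 541 (61.1%) were led by 24 nt there and 278 (31.4%) by 20 to 23 nt. In cold 87.6% and 90.8% were led by 24 nt, against 75.4% and 83.0% for air heat, 81.6% and 71.4% for water heat, and 71.8% under salt. Salt was the library with most loci led by 25 to 41 nt, at 228 of 2465, and 3 h of water heat had 208 of 2872 led by 15 to 19 nt. Over all loci in the rule with 20 or more reads in the library, 24 nt led at 52.4% unstressed. It led at 59.1% and 61.7% in cold and at 42.0% to 58.5% elsewhere. Of all those loci, 28.7% were led by 25 to 41 nt under salt and 27.3% by 15 to 19 nt after 3 h of water heat. The loci with enough reads differed from library to library. Of the 804 loci read in all 8 libraries 308 were led by 24 nt in each of them.

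Taken over all companions, the pooled second class was also the second class at most loci within each library. This did not hold for each kind of companion. Where a mixed locus had 20 or more reads in a library and an untied pooled second class, the largest class other than 24 nt within that library was the pooled one at 64.1% of loci under salt, the lowest share, and at 90.6% in the unstressed library, the highest. Loci whose pooled companion was 20 to 23 nt had it at 66.9% under salt and 92.3% in the unstressed library. Loci whose pooled companion was 15 to 19 nt had it at 36.1% after 6 h of cold and at 76.9% in the unstressed library, where only 39 such loci could be read. Most such loci also lacked it under salt (38.0% had it), after 24 h of cold (49.1%) and after 1 h of water heat (49.5%). Loci with 25 to 41 nt had it at most loci only under salt, at 75.3%, and after 1 h of water heat, at 54.2%. In the other libraries the share ran from 28.6% after 3 h of water heat to 48.1% after 3 h of air heat. Each library is part of the pool it is set against.

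Loci grouped by companion without a given library could be read in that library. Loci grouped as 21 nt companions in the other 7 libraries had 27.7% of their reads at 21 nt in the unstressed library, against 12.9% for loci grouped as 23 nt companions. Loci grouped as 23 nt companions had 13.5% at 23 nt there, against 7.55% for the 21 nt group. In the stressed libraries the 21 nt group had 13.9% to 20.5% at 21 nt and the 23 nt group 6.43% to 9.51%. Which companion a locus had therefore carried over to a library not used to assign it, in all 8 libraries for these 2 groups of loci.

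Single loci show the 21 nt companion most plainly. Bradi1g22630.1 had 1628 reads in all, and its lengths were nearly inverted between the unstressed library and the others. In the unstressed library 132 of its 165 reads were 21 nt and 24 were 24 nt, a 24 nt share of 14.5%. The 24 nt share was 53.5% of 99 reads under salt, 65.0% of 337 and 68.9% of 341 in cold, 64.2% of 173 and 71.9% of 295 for air heat, and 60.3% of 73 and 61.4% of 145 for water heat. The 7 stressed libraries all lay above the unstressed one, whose 95% interval reached 20.9%. This locus was named for its wide gap in 24 nt share in cold and air heat, so the gap there was fixed by the choice. The same holds for the next 2 loci, Bradi1g52570.1 in water heat and Bradi2g59620.1 in cold.

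Bradi1g52570.1 had the same shape. In the unstressed library 72 of its 80 reads were 21 nt and 5 were 24 nt. The 24 nt share was 6.25% there and 53.3% to 70.7% in the 7 stressed libraries, lowest after 24 h of cold and highest after 1 h of water heat. Bradi2g59620.1 was 21 nt in 66 of its 70 unstressed reads, had 24 nt shares of 77.1% of 83 reads and 69.6% of 56 reads in cold, and kept few reads under salt, with 8 in all. These loci led by 24 nt in the pool were loci of 21 nt reads in the unstressed library.

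Other mixed loci, likewise named for a wide gap in 24 nt share, went the opposite way. Bradi3g32150.1 had 111 of 116 unstressed reads at 24 nt, a share of 95.7%. Its 24 nt share was 34.4% of 32 reads under salt, 37.0% of 135 and 59.8% of 82 in cold, 16.7% of 66 and 5.63% of 71 for air heat, and 28.6% of 28 and 31.4% of 51 for water heat. After 6 h of cold 64 of its reads were 23 nt, while after 3 h of water heat 15 of 51 were 25 to 41 nt, so the length in place of 24 nt was not the same from library to library.

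At Bradi1g32770.1, which has 3 identifiers among the mixed loci, 117 of 127 unstressed reads and 336 of 375 reads after 1 h of air heat were 24 nt. The other 6 libraries had 18 to 90 reads with between 0 and 6 of 24 nt. After 6 h of cold 59 of 90 reads were 23 nt and none was 24 nt, where 0 of 90 leaves a 95% interval up to 4.02%. After 24 h of cold 23 of 47 reads were 15 nt. The libraries high in 24 nt here were the unstressed one and 1 h of air heat.

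**Figure D4:**
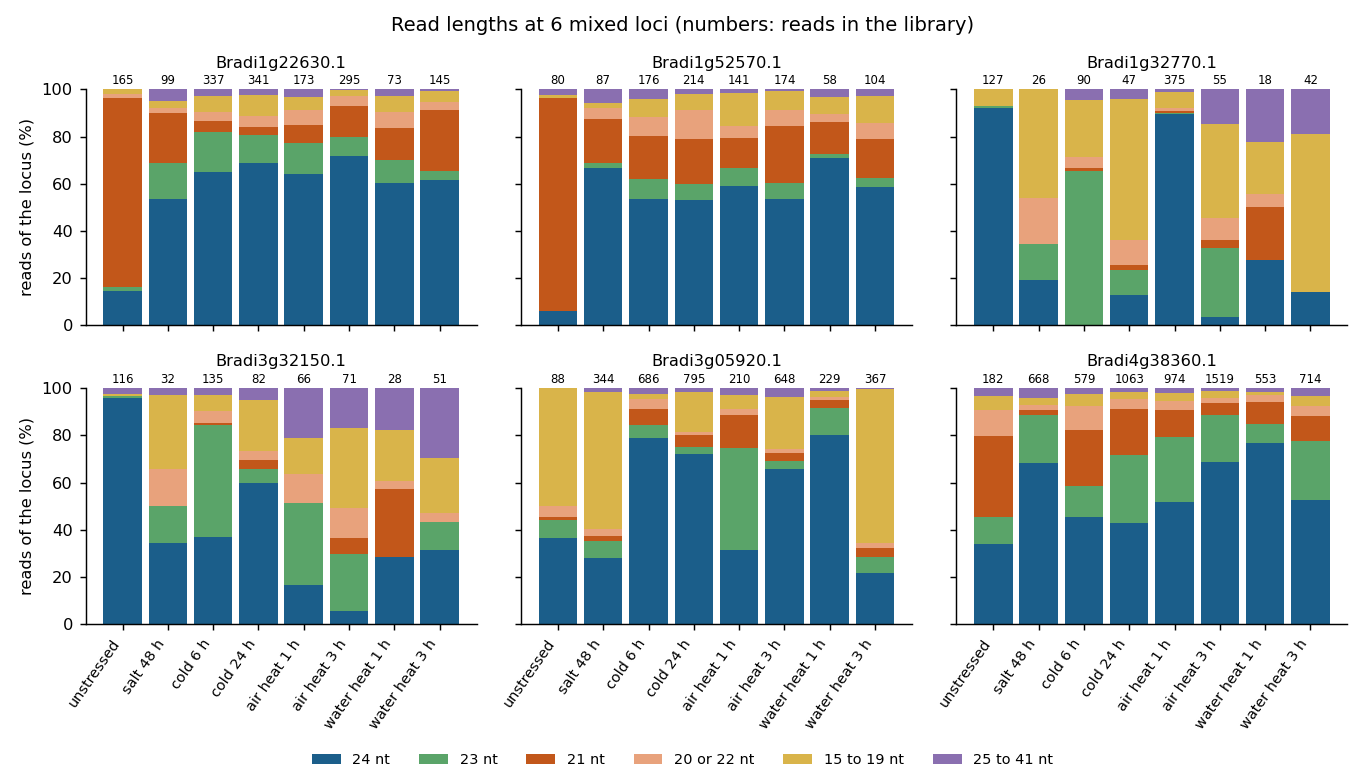
Share of a locus's reads (percent, stacked from 0) in 6 length groups for each of the 8 libraries, at 6 mixed loci chosen from the named ones, with the number of reads above each bar. Bradi1g22630.1 and Bradi1g52570.1 are mostly 21 nt in the unstressed library and mostly 24 nt in the others. Bradi3g32150.1 is 95.7% 24 nt in the unstressed library and lower elsewhere. Bradi3g05920.1 has many short reads in some libraries and few in others.

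Among the loci with most reads, the companion differed between libraries even where 24 nt led. Bradi4g38360.1 had the most reads of any mixed locus, 6252. Its 24 nt share was 34.1% of 182 reads in the unstressed library, 68.4% of 668 under salt, 45.4% of 579 and 42.8% of 1063 in cold, 51.6% of 974 and 68.6% of 1519 for air heat, and 76.7% of 553 and 52.7% of 714 for water heat. In the unstressed library 62 of its reads were 21 nt, equal to its 24 nt reads, and after 24 h of cold 306 were 23 nt. At Bradi3g43260.1, with 6202 reads, the 24 nt share ran from 45.6% after 1 h of air heat to 71.8% after 24 h of cold.

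The companion of 15 to 19 nt was in places a single length. Bradi3g05920.1, with 5 identifiers among the mixed loci, had the most reads of the loci with that second class, 3367. Reads of 15 nt were 44 of 88 in the unstressed library, 197 of 344 under salt, 3 of 686 and 129 of 795 in cold, 2 of 210 and 138 of 648 for air heat, and 0 of 229 and 234 of 367 for water heat. The 15 nt reads were few after 6 h of cold and after 1 h of both kinds of heat, and many in the other 5 libraries. After 1 h of air heat, 91 of the 210 reads were 23 nt.

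Loci accompanied by 25 to 41 nt had broader make-ups. Bradi1g05800.1, with 4191 reads, had 24 nt shares of 23.5% of 289 reads in the unstressed library, 20.1% under salt and 52.9% of 544 reads after 24 h of cold. Its 25 to 41 nt reads were 233 of 571 under salt, where they outnumbered the 115 reads of 24 nt. Only 6.40% of its nonzero counts per length and library were odd numbers, against a median of 51.7% over the mixed loci, which was not traced further; its intervals take each count as 1 read. At Bradi1g19080.1 the 24 nt share was 61.1% of 95 reads in the unstressed library and 71.6% of 422 after 24 h of cold, but 4.82% of 353 and 5.86% of 256 for air heat.

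The most even mixed locus with 200 or more reads was Bradi3g45880.1. Of its 208 reads 25% were 15 to 19 nt, 24.5% were 20 to 23 nt, 26.9% were 24 nt and 23.6% were 25 to 41 nt. Its reads per library ran from 6 in the unstressed library to 41 after 24 h of cold, too few to order the libraries.

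To count loci whose make-up differed, the 24 nt share was compared between each stress and the unstressed library at loci with 20 or more reads in both. A locus was counted where the 95% intervals did not overlap, at both times for cold and the 2 heats. All 4 comparisons share the unstressed library, so their counts are not independent of each other. In cold 167 of 884 mixed loci had a higher 24 nt share, where 14.5% of all loci that could be tested did, and 26 had a lower one, where 2.48% of all loci did. For air heat 89 of 885 were higher and 36 lower, against 9.84% and 3.62% of all loci.

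For water heat 75 of 813 mixed loci were higher and 23 lower, against 7.30% and 1.75% of all loci. Under salt 130 of 865 were higher and 64 lower, against 14.1% and 5.53% of all loci. The share of mixed loci counted as higher was 18.9% in cold, 10.1% and 9.23% for the heats and 15.0% under salt, near the share over all loci for air heat and salt. In each stress more mixed loci were higher than lower. With the loci chosen from the libraries not compared, 169 were higher and 25 lower of 886 in cold, and 96 and 31 of 894 for air heat. The counts were 63 and 20 of 803 for water heat and 138 and 63 of 880 under salt. No share over all loci was worked out for that choice.

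These counts rest on the unstressed library. With the libraries of the other stresses summed as the reference, cold had 318 of 3574 mixed loci higher and 69 lower. Air heat had 64 of 3106 higher and 139 lower, water heat 37 of 1620 and 79, and salt 166 of 2465 and 505. Higher loci outnumbered lower ones for cold, and lower ones outnumbered higher ones for the other stresses. That reference was chosen after the data were seen. The share over all loci was not worked out for it, so whether these directions are particular to the mixed loci cannot be told.

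At the loci counted as higher, 21 nt was the commonest unstressed length at 83 of the 167 loci for cold, 49 of 89 for air heat, 44 of 75 for water heat and 65 of 130 for salt. Over all mixed loci that could be compared it was so at 136 of 884 for cold, 136 of 885 for air heat, 125 of 813 for water heat and 130 of 865 for salt. The loci were picked for a low 24 nt share in the unstressed library, so other lengths had to be higher there, and the values only describe which lengths these were. Summed over the 167 loci of cold, 21 nt held 35.3% of the unstressed reads, 12.8% after 6 h and 10.9% after 24 h, while 23 nt held 7.91%, 11.0% and 9.50%. Under salt the 21 nt reads of the 130 loci were 38.6% unstressed and 8.85% stressed.

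At the loci counted as lower, 24 nt was the commonest unstressed length at all 26 for cold, all 36 for air heat, all 23 for water heat and 62 of 64 for salt. These loci were likewise picked for their 24 nt share, so other lengths had to hold more under stress. Summed over the loci, 23 nt, 15 to 19 nt and 25 to 41 nt held more of the reads than in the unstressed library in every stressed library compared. For cold, 23 nt held 2.57% unstressed, 25.5% after 6 h and 14.3% after 24 h, and 21 nt held 4.84%, 10.7% and 17.6%. For air heat, 15 to 19 nt held 4.67% unstressed and 15.4% and 16.6% stressed, 23 nt held 2.68%, 12.3% and 13.0%, and 21 nt held 11.8%, 9.91% and 12.7%. For water heat the widest gain was of 21 nt, with 10.2% unstressed and 20.9% and 29.2% stressed. Under salt 25 to 41 nt held 2.52% unstressed and 17.7% stressed, and 21 nt held 7.21% and 14.9%.

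**Figure D5:**
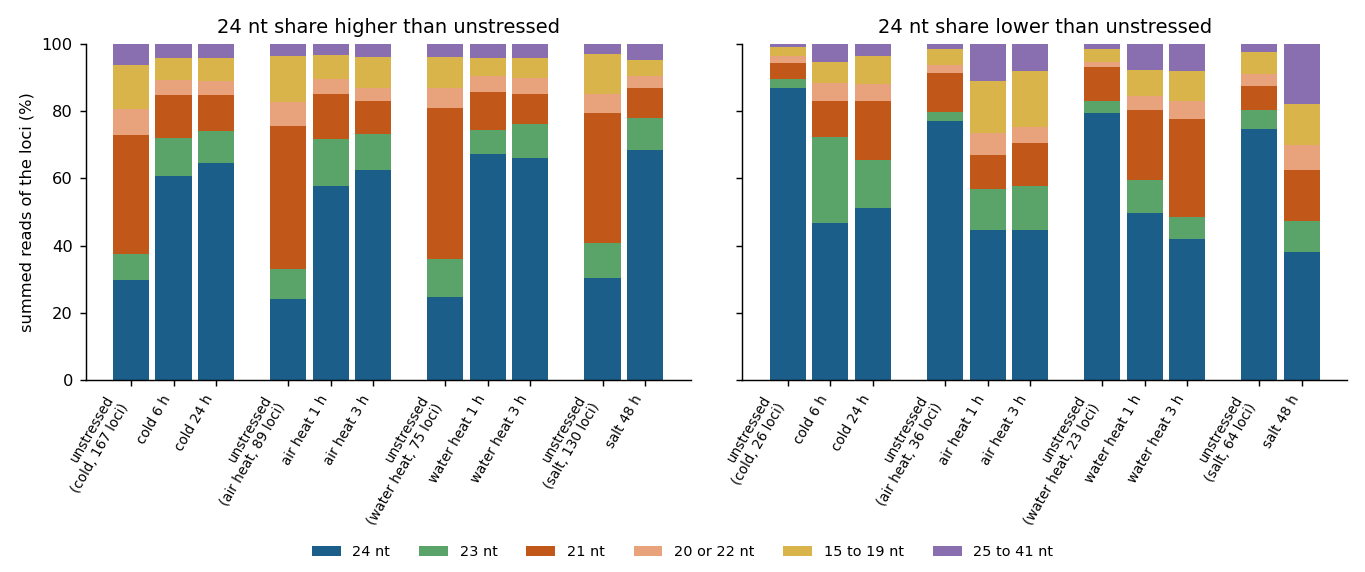
Summed reads (percent, stacked from 0, in 6 length groups) of the mixed loci counted as higher (left) or lower (right) in 24 nt share than the unstressed library, for each stress, with the same loci shown in the unstressed library first. On the left the 21 nt part shrinks, from 35.3% to 12.8% and 10.9% in cold, and on the right 23 nt, 15 to 19 nt and 25 to 41 nt all take a larger part in every stressed library.

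The loci with the widest gaps between intervals under salt were Bradi4g32600.1 and Bradi3g48510.1 among those higher. Bradi4g32600.1 had 0 of 21 reads at 24 nt in the unstressed library, 19 of them being 21 nt, and 164 of 183 under salt. Bradi3g48510.1 had 1 of 20 and 215 of 242. The 2 loci were alike in other libraries too. After 3 h of water heat 24 nt held 127 of 137 reads at the first and 122 of 137 at the second, and after 3 h of air heat 23 nt held 82 of 120 and 75 of 99. They lie on different chromosomes by their identifiers, and as it is not stated how a read with several matches was counted, whether they share reads cannot be told. Among those lower under salt, Bradi3g43310.1 had 32 of 35 reads at 24 nt in the unstressed library and 2 of 35 under salt.

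The level of a locus, as distinct from its lengths, depends on how libraries are scaled. The libraries were scaled with TMM, a trimmed mean of log ratios over loci. A mixed locus was called when its ratio to the unstressed library was beyond 2-fold over its full 95% interval, at both times for cold and the heats. In cold 30 mixed loci were higher and 54 lower, where 0.704% and 2.19% of all loci were. For air heat 12 were higher and 55 lower, against 1.70% and 1.56% of all loci, and for water heat 10 and 58, against 1.70% and 1.51%. Under salt 47 were higher and 152 lower, against 4.20% and 3.45% of all loci.

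Out of 4840 mixed loci these counts are 0.207% to 0.971% higher and 1.12% to 3.14% lower, and in none of the 4 stresses and 2 directions was the share above that over all loci. Scaled by total reads instead, the same loci gave 3408 higher and 0 lower in cold, 1738 and 0 for air heat, 1028 and 3 for water heat, and 3042 and 0 under salt. The 2 scalings differ by a factor of 3.59 to 9.20 in each stressed library, and the loci in the rule held 5.29% of the unstressed library's reads and 18.6% to 46.9% of the others. No direction of level is therefore given without its scaling. With total reads outside the 100 most abundant loci as the scaling, 30 were higher and 52 lower in cold and 61 and 127 under salt, close to the TMM counts.

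Among the loci higher by TMM in cold, Bradi1g05150.1 had 6 unstressed reads and 521 and 345 reads in cold, a 13.0-fold and 9.12-fold higher scaled level with lower interval ends of 5.91 and 4.15. Its cold reads at 6 h included 150 of 23 nt and 337 of 24 nt. Bradi4g07130.1 had no unstressed read and 111 and 117 reads in cold, which against a floor of 3 counts in the unstressed library is at least 5.52-fold and 6.18-fold higher. Its lengths changed over between the times, with 90 of the 111 reads at 21 nt after 6 h and 95 of the 117 at 24 nt after 24 h. Among those lower, Bradi1g32770.1 had 127 unstressed reads and 90 and 47 in cold, a log2 fold of -3.24 at the weaker time, which was -0.69 with total reads as scaling and then no longer beyond 2-fold. Under salt Bradi2g45150.1 went from 3 to 238 reads, 216 of them 24 nt. Bradi2g59620.1 went from 70 to 8 reads under salt, a log2 fold of -4.82, and -2.06 with total reads as scaling, where the interval also reached inside 2-fold.

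By class and TMM, the summed 20 to 23 nt reads of the mixed loci were below the unstressed library in all 7 stressed libraries, at 0.551-fold under salt to 0.858-fold after 6 h of cold. The 24 nt reads were 1.31-fold and 1.33-fold in cold, 0.959-fold and 1.03-fold for air heat, 1.08-fold and 0.849-fold for water heat, and 0.863-fold under salt. The 25 to 41 nt reads were 1.96-fold under salt and 0.861-fold to 1.22-fold elsewhere. With total reads as scaling every class was above the unstressed library in every stressed library, from 2.39-fold to 13.3-fold. The ratio between classes needs no scaling, and relative to 24 nt the 20 to 23 nt reads were 0.556-fold to 0.753-fold the unstressed ratio in the 7 stressed libraries.

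Several identifiers can stand for the same reads. The 4840 mixed loci held 4251 distinct sets of counts, 473 of which were shared by more than 1 identifier, always of the same gene. Counts of loci, summed reads and their intervals take each identifier as separate, so the same reads can enter them more than once. The 167 mixed loci with a higher 24 nt share in cold, for example, were from 110 genes. Of 892 genes with a mixed locus and more than 1 identifier that passed, all identifiers were mixed at 740. By the chromosome written in the identifier, mixed loci were 24.9% to 28.9% of the loci on each of the 5 chromosomes, lowest on chromosome 2 and highest on chromosome 4. Only even counts were listed at 131 mixed loci (2.71%), against 5.22% of the 18091 loci and 9.60% of those with 70% or more 24 nt.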

How the data were processed

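The authors deposited 1 file per library with whole-number counts of small RNA reads per 3' UTR identifier and read length, named raw counts per the file headers. Headers and columns are offset, so read length was taken as the field with values of 15 to 41. The submitters' processing notes name the tools Bowtie 0.12.7, bedtools 2.10.0 and CASAVA, without their roles. Not given in the sources used here are the build, the annotation, strand use and how reads with several places were counted. RefSeq's table (31335 genes, assembly Brachypodium_distachyon_v3.0) held none of the 24118 gene identifiers and the files give no names, so gene names, functions and sequences are not printed.

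The 8 files held 30815 identifiers with 1730029 to 4622303 reads per library. These are reads at 3' UTRs and not the depth of sequencing. Shares have exact (Clopper-Pearson) 95% intervals, and folds have intervals from the conditional binomial share after TMM scaling (unstressed library as reference, with 30% of the log ratios and 5% of the levels trimmed). Level calls ran over the 18191 loci with 40 or more reads. A floor of 3 counts in the library stands in for 0 reads. The code used Python 3.11.15, numpy 2.4.6, pandas 2.3.3, scipy 1.17.1 and matplotlib 3.10.9, was tested on simulated data, and its scaling was checked against edgeR 4.0.16.

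The rule for named loci took 1 identifier per gene: the 3 with most reads for each second class, the 2 farthest from no change per stress and direction in level and in 24 nt share, those nearest the limits of the rule, and the most even one. Not all of these are printed. Members, rules and lists were chosen with earlier results of these data known. Alternatives were the 70% limit, the minimum reads, the loci left out, equal weight for libraries, 1 identifier per gene, each library left out, other scalings, a 4-fold limit, single length groups and halved counts.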

Additional observations from a re-analysis of the deposited data

Results flagged for a closer look

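Bradi2g47750.1 was the only mixed locus whose 24 nt share was counted as higher in one stress and lower in another, and no mixed locus was so for its level. Its 24 nt share was 36.7% of 49 reads in the unstressed library, 77.8% of 117 and 65.0% of 246 reads after 1 h and 3 h of water heat, and 4.88% of 41 reads under salt. In the unstressed library 21 of its reads were 23 nt, and under salt 13 of 41 were. The difference between water heat and salt was not tested, and all these comparisons share the unstressed library.

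Summed 24 nt reads of the mixed loci, scaled by TMM, lay above the unstressed library in cold, at 1.31-fold and 1.33-fold after 6 h and 24 h, and below it under salt, at 0.863-fold. Summed reads of 25 to 41 nt lay below it in cold, at 0.889-fold and 0.861-fold, and above it for water heat, at 1.22-fold and 1.16-fold after 1 h and 3 h, and under salt, at 1.96-fold. These differences between stresses were not tested, and with total reads as scaling all of them lay above the unstressed library.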

How the results depend on the processing

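No paired analysis was possible because each condition has 1 library. Where a value below differs, the cause was not tested unless the setting itself gives it. With 1 library left out of the rule in turn, the number of mixed loci was 4483 to 4827, the lowest 24 nt share of a library 47.1% to 48.8% and the highest 60.6% to 61.6%. The highest share of 15 to 19, 20 to 23 and 25 to 41 nt was then 13.2% to 14.3%, 34.4% to 35.8% and 13.3% to 14.0%. The median fold over the stressed libraries was 0.792 to 0.862 for 15 to 19 nt, and 0.995 to 1.054 for 24 nt, which crosses no change. Every count of loci higher or lower stayed within 1.5 times of the reported one in those 8 settings.

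A limit of 60% gave 3148 mixed loci, 2176 of them with 20 to 23 nt as the second class. The 24 nt share of the libraries then ran from 40.3% to 56.0%, and from 40.5% to 56.6% with the library left out of the rule. The highest shares of the 3 other classes were 17.1%, 38.9% and 16.9%. In level 9 loci were higher in cold, 37 lower for water heat and 95 lower under salt, and in 24 nt share 14 were lower in cold, 22 for air heat, 6 for water heat and 40 under salt, with 82 higher under salt. The median fold of 25 to 41 nt was 1.16. A limit of 80% gave 24 nt shares of 54.2% to 66.3%, and 53.9% to 66.4% with the library left out, highest shares of the 3 other classes of 11.0%, 31.4% and 10.9%, and a median fold of 0.803 for 15 to 19 nt. In level 52 loci were higher in cold and 19 for air heat, and in 24 nt share 135 were higher for air heat and 208 under salt.

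With 200 reads or more there were 2748 mixed loci, of which 273, 2373 and 85 had 15 to 19, 20 to 23 and 25 to 41 nt as the second class, and the highest shares of these classes were 13.0%, 35.9% and 13.0%. With 10 instead of 100 loci left out the lowest 24 nt share was 48.4%, the highest shares of 15 to 19 and 25 to 41 nt were 13.5% and 13.5%, and the median folds were 0.633 for 20 to 23 nt and 0.971 for 24 nt, the latter on the other side of no change. With libraries weighted equally the 24 nt shares were 49.2% to 62.8%, the highest shares of the 3 other classes 13.7%, 34.2% and 13.2%, the median fold of 15 to 19 nt 0.805, and the loci higher in level 25 for air heat and 16 for water heat. With 1 identifier per gene the 24 nt shares were 48.32% to 61.6%, the highest shares of 15 to 19 and 25 to 41 nt 12.9% and 12.9%, and the median folds of these classes 0.803 and 1.16. It left 147 loci with 25 to 41 nt second, 110 with a higher 24 nt share in cold, 20 with a lower one for air heat, and 6 higher and 37 lower in level for water heat.

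Scaled by total reads, 3408 loci were higher and 0 lower in cold, 1738 and 0 for air heat, 1028 and 3 for water heat, and 3042 and 0 under salt, and the median folds of the 4 classes from short to long were 4.39, 3.51, 5.86 and 5.19, the first 2 on the other side of no change. Beyond 4-fold there were 3 higher and 13 lower in cold, 0 and 13 for air heat, 1 and 13 for water heat, and 4 and 21 under salt. Counted on reads other than 24 nt, 1 was higher and 87 lower in cold, 1 and 86 for air heat, and 0 higher for water heat. With counts halved, 9 were higher in cold, 2 for air heat, 2 for water heat, and 15 higher and 79 lower under salt. The 24 nt share was then higher at 62 loci in cold, at 27 and lower at 8 for air heat, at 16 and 2 for water heat, and at 46 and 13 under salt, partly because fewer loci reach 20 reads. A minimum of 50 reads per library left 9789 cases of a locus led by 24 nt in a library, against 17961 with 20.

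With the other stresses as the reference, chosen after the data were seen, 8 loci were lower in level in cold, 5 higher and 25 lower for air heat, 2 and 7 for water heat, and 73 lower under salt. The 24 nt share was higher at 318 and lower at 69 in cold, lower at 139 for air heat, higher at 37 and lower at 79 for water heat, and lower at 505 under salt. These counts have no share over all loci beside them. Also chosen then, leaving out loci with only even counts gave 4709 mixed loci and moved no count of calls by over 1.5 times, and the rule over the libraries not compared moved none either.

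The depth of the unstressed library limits all comparisons with it: its median of 6 reads per mixed locus leaves 886 of 4840 with the 20 reads set for reading a make-up, and the 24 nt share of the others was not compared with it. Results at named loci were checked 52 times in all, each result once per setting. Level results were checked under 4 alternatives and 24 nt shares under halved counts, the latter only for whether the intervals stayed apart. No checked level result changed direction, and in 15 of the 52 checks the result was no longer past the limit. Level results with 3 or fewer unstressed reads, among them Bradi4g07130.1 and Bradi2g45150.1, were not checked.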
